A study of Cavia porcellus with 34 samples.

Results

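The AMPA and NMDA receptor subunits were examined as a family in the hypothalamic paraventricular nucleus (PVN) of the guinea pig: the AMPA subunit genes GRIA1, GRIA2, GRIA3 and GRIA4 and the NMDA subunit genes GRIN1, GRIN2A, GRIN2B, GRIN2C, GRIN2D and GRIN3A. Rows were matched by gene symbol in each generation's table, and the family was chosen with earlier results of these data known. Of the 10 named subunits, 9 had a row in at least 1 table, among 12590 genes over all tables. GRIN2D was not analysed here, and GRIN2C was analysed in F2 and F3 and not in F1, which left 8 subunits of 12114 genes in F1, 9 of 12207 in F2 and 9 of 12068 in F3.

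mRNA libraries were made from micropunches of juvenile female Dunkin-Hartley guinea pigs of the paternal transmission (PT) line on postnatal day 40. Pregnant F0 dams had been injected with saline (Veh, labelled Control) or with the synthetic glucocorticoid betamethasone (sGC, labelled Beta). F1 animals were exposed in utero, while F2 and F3 animals descended from treated dams through F1 and F2 males mated with untreated females and received no treatment themselves. F1 held 5 Veh and 5 sGC animals, F2 held 5 Veh and 5 sGC, and F3 held 6 Veh and 6 sGC. Each animal stands for its own litter in the study's methods. The punches held the whole PVN and may also hold neighbouring hypothalamus. Animals are named by the number in their label (SGM), and numbers recur between generations for different animals.

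AMPA and NMDA receptors are ion channels opened by glutamate that carry most fast excitatory transmission in the brain. AMPA receptors are tetramers of the GRIA subunits and carry the rapid current, and those lacking GRIA2 let calcium through. NMDA receptors pair the obligatory GRIN1 subunit, which binds glycine or D-serine, with GRIN2 subunits that bind glutamate, and they open when glutamate arrives while the membrane is already depolarised. In the PVN, glutamate excites the neuroendocrine neurons that release corticotropin-releasing hormone, vasopressin and oxytocin.

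Sample totals ranged from 15.57 to 21.94 M normalized counts in F1, from 15.65 to 19.44 M in F2 and from 18.69 to 18.98 M in F3. Values below are normalized counts divided by a size factor for the sample (scaled counts), and a fold change is the sGC minus the Veh mean of log2(scaled count + 1), tested with limma and adjusted over all genes of that generation. In F1, 2058 of 11870 genes (17.3%) passed the adjusted p threshold of 0.05, 8.48% higher and 8.86% lower in sGC. With the values as deposited and unscaled, 78 of 11874 (0.657%) passed, 72 higher and 6 lower, against 1006 higher and 1052 lower with scaling. In F2, 0 of 11959 genes (0%) passed with limma, although 1534 had an unadjusted p under 0.05, and in F3 5 of 11865 genes (0.0421%) passed. Defining markers of the PVN were detected in every generation and were uneven between animals, in F1 mostly within the sGC group. AVP, which encodes vasopressin, lay between 57394 and 111120 scaled counts in the Veh animals. In the sGC animals it was 10039 in SGM4, 13898 in SGM8, 25677 in SGM20, 74554 in SGM12 and 97543 in SGM16. The F1 fold change of each subunit is therefore also given without the 3 sGC animals of low AVP, which leaves 2 sGC against 5 Veh animals. In tissue punches, fewer cells of a type and less RNA per cell cannot be told apart.

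In F1, the AMPA subunit genes GRIA1 and GRIA2 rose in the sGC group and no NMDA subunit passed the test. The AMPA and NMDA classes were not compared by a test. GRIN2B, an NMDA gene, had a log2 fold change of 0.22, above the 0.18 of GRIA2, while the AMPA gene GRIA4 had 0.04. The share of subunits past the threshold was 2 of 8 (25%), set against 17.3% of all genes. All 8 fold changes were positive, with a median log2 fold change of 0.17 against 0.00 over all genes. The groups did not overlap for 1 of 8 subunits, as for 14.2% of all genes.

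GRIA1 encodes the AMPA subunit whose trafficking to the synapse is most studied in plasticity. GRIA1 was 2480, 2750, 2513, 2594 and 2373 scaled counts in the Veh animals SGM3, SGM7, SGM11, SGM15 and SGM19. In the sGC animals SGM4, SGM8, SGM12, SGM16 and SGM20 it was 2982, 3523, 4024, 3257 and 3157. Every sGC animal lay above every Veh animal, and SGM12 was the highest. The means were 2542 ± 141 in Veh and 3389 ± 406 in sGC (SD, n = 5 each), and the log2 fold change was 0.41 (SE 0.07, 95% interval 0.24 to 0.57), a rise of 32.7%, with an adjusted p of 0.00599. It stayed past the threshold without any single animal, at 0.35 to 0.45. Without the 3 animals of low AVP it was 0.51 with an adjusted p of 0.0133, and with unscaled values it was 0.47 but did not pass (adjusted p = 0.11).

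GRIA2, whose edited form makes AMPA receptors impermeable to calcium, was 4677, 5033, 4942, 4654 and 5340 scaled counts in the Veh animals in the same order. In the sGC animals it was 4985, 5951, 5932, 5644 and 5520. SGM4 was the 1 sGC animal that lay inside the Veh range, and the other 4 lay above it. The log2 fold change of GRIA2 was 0.18 (SE 0.06), a rise of 13.6%, with an adjusted p of 0.0451. That call was close to the threshold and was lost without any one of 8 of the 10 animals (0.16 to 0.23 over all 10 omissions, adjusted p 0.0185 to 0.101); it held without Veh SGM19 or sGC SGM4. It was also lost with unscaled values (adjusted p = 0.39) and with the directions removed by the authors' normalization as covariates (adjusted p = 0.0731). Without the 3 animals of low AVP it was 0.23 with an adjusted p of 0.0487.

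GRIA3, another AMPA subunit, was 736, 787, 801, 688 and 997 scaled counts in Veh and 994, 1201, 888, 863 and 956 in sGC. Veh SGM19 lay within the sGC range, and the other 4 Veh animals lay below every sGC animal. Its log2 fold change of 0.29 (SE 0.11) did not pass, with an adjusted p of 0.0899. Without Veh SGM19 it was 0.37 with an adjusted p of 0.0332, and without the 3 animals of low AVP 0.14 and not past the threshold. GRIA4, a subunit of fast kinetics, ranged from 1573 to 1893 scaled counts in Veh and from 1701 to 1930 in sGC, and the groups overlapped (log2 fold change 0.04, SE 0.05, and 0.03 without the low-AVP animals).

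Among the NMDA subunits, the obligatory GRIN1 ranged from 6692 to 7097 scaled counts in Veh and from 6284 to 7945 in sGC. SGM4, SGM8 and SGM12 lay above the Veh range and SGM16 and SGM20 below it, so the sGC group was more spread and its mean hardly differed (log2 fold change 0.05, SE 0.07, and 0.06 without the low-AVP animals). GRIN2B, which predominates in early development and gives long-lasting currents, was 1193, 1276, 1262, 1371 and 1275 in Veh and 1422, 1676, 1679, 1494 and 1189 in sGC. In 4 of 5 sGC animals GRIN2B exceeded every Veh animal, while SGM20 was the lowest of all 10. The log2 fold change of GRIN2B was 0.22 (SE 0.09) and did not pass (adjusted p = 0.11). Without SGM20 it was 0.30 with an adjusted p of 0.0159, and without the 3 animals of low AVP 0.31 with an adjusted p of 0.0269.

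GRIN2A, which tends to replace GRIN2B as synapses mature, was 494, 462, 532, 634 and 607 scaled counts in the Veh animals. In sGC it was 783 in SGM4, 789 in SGM8 and 636 in SGM20, above every Veh animal, and 465 in SGM12 and 432 in SGM16. The high animals were the 3 of low AVP. Its log2 fold change was 0.15 (SE 0.18, adjusted p = 0.588) with all animals and -0.27 (adjusted p = 0.185) without those 3. GRIN3A, a subunit that lowers calcium entry through NMDA receptors, ranged from 2288 to 2763 in Veh and from 2291 to 2825 in sGC, with a log2 fold change of 0.01 (SE 0.07), or -0.0023 without the low-AVP animals.

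**Figure D1:**
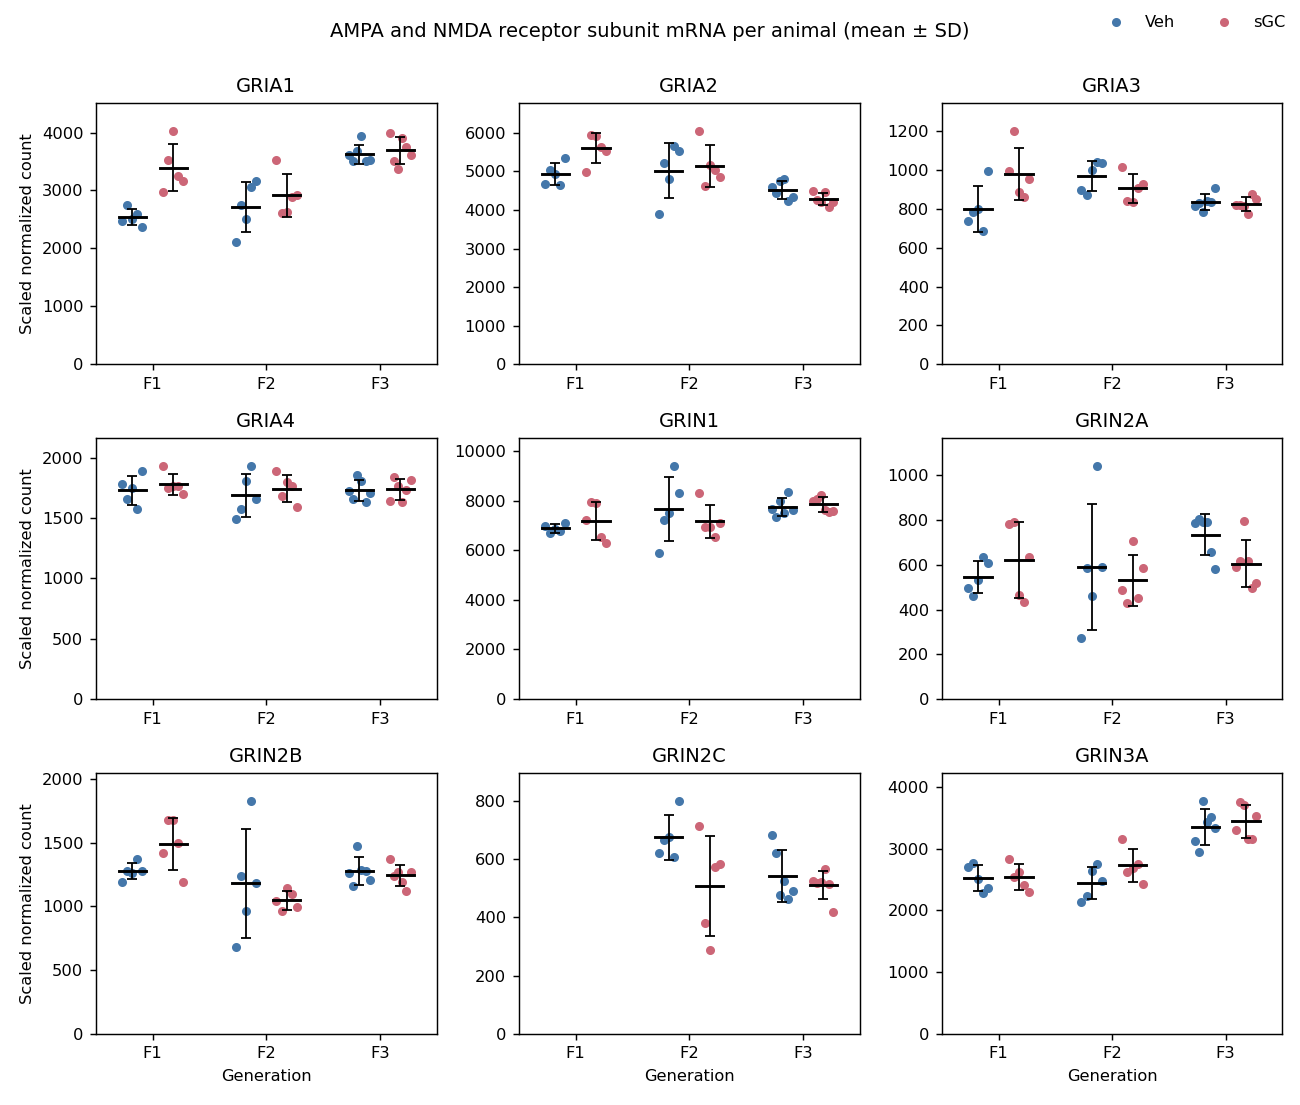
Scaled normalized counts of 9 subunit genes in each animal (vertical axes from 0) by generation (horizontal axis), Veh in blue and sGC in red, with the mean as a bar and the SD as whiskers. In F1 the 5 sGC animals lie above the 5 Veh animals for GRIA1, and GRIN2C has no F1 points because it was not analysed there.

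The number of F1 subunits past the threshold was 2 with all animals, 3 without the low-AVP animals (GRIA1, GRIA2 and GRIN2B), 1 with the removed directions as covariates and 0 with unscaled values. The summed PVN neuroendocrine list (6 genes) ranged from 107424 to 209457 scaled counts in Veh and from 19747 to 172059 in sGC. All 6 of its genes had a negative fold change, and 1, TRH (thyrotropin-releasing hormone), passed (-1.003, adjusted p = 0.0398). Of the 7 neuron markers tested, MAP2, a dendritic cytoskeletal protein, rose (0.42, adjusted p = 0.0031) and STMN2, a protein of growing axons, fell (-0.21, adjusted p = 0.0197). The summed neuron list ranged from 109323 to 121654 in Veh and from 111014 to 138297 in sGC. All 7 oligodendrocyte markers tested had a positive fold change and none passed (sum 32115 to 56733 in Veh, 35904 to 97145 in sGC). Of 5 microglial markers, 3 had a positive fold change and CX3CR1, a chemokine receptor, passed (0.25, adjusted p = 0.0496). All 4 endothelial markers had a positive fold change and none passed, CDH5 (vascular endothelial cadherin) being without overlap (0.76, adjusted p = 0.0511). The endothelial sum ranged from 4222 to 4919 in Veh and from 4183 to 7639 in sGC, highest in SGM4 and SGM8. Of 7 astrocyte markers, 5 had a positive fold change and none passed, the glutamate transporter SLC1A2 being without overlap (0.42, adjusted p = 0.0607). The thalamus list ranged from 1541 to 8107 in Veh, highest in SGM15, and from 1247 to 1646 in sGC. The ventromedial hypothalamus sum ranged from 158 to 487 in Veh and from 283 to 634 in sGC. Oligodendrocyte precursor sums were 3044 to 3971 in Veh and 3101 to 5612 in sGC. For ependyma and choroid plexus they were 4523 to 4957 and 4742 to 5559. No gene of these lists passed, the largest fold change being that of TTR (3.44, adjusted p = 0.132), at 0 to 17 scaled counts in Veh and 0 to 542 in sGC. Without the low-AVP animals and SGM15, the log2 fold change of GRIA1 was 0.52. That fit holds 2 sGC animals, SGM12 and SGM16, and SGM12 had the highest GRIA1 of all F1 animals (4024 scaled counts). In SGM12 the PVN genes AVP, OXT, SIM1 and OTP lay within the Veh range. Its TRH (1511) and CRH (199) lay below every Veh animal, of which the lowest had 2892 and 252. The part of cell content in the subunit values was not tested.

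**Figure D2:**
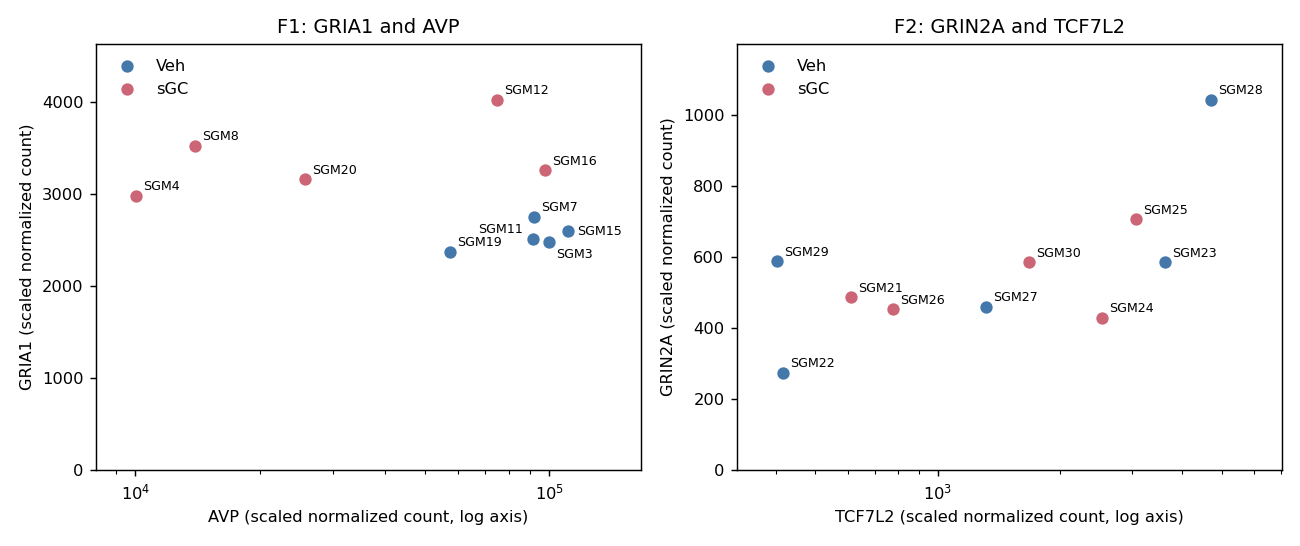
Subunit level (vertical axis, scaled normalized count, from 0) against a regional marker (horizontal axis, scaled normalized count, logarithmic) in each animal, for GRIA1 and AVP in F1 (left) and GRIN2A and TCF7L2, a thalamus marker, in F2 (right). In F1 the sGC animals SGM12 and SGM16, whose AVP lies within the Veh range, also have more GRIA1 than every Veh animal, and in F2 Veh SGM28 has the highest value of both genes. SGM12 has less TRH and CRH, which are not drawn, than every F1 Veh animal.

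In F2, none of 9 subunits passed the limma test (0%, as for all genes). An unadjusted p under 0.05 was found for 1 of 9, beside 1534 of all 11959 genes. No subunit had groups without overlap (3.21% of all genes did). The fold changes ran from -0.48 to 0.16 with a median of -0.04. The subunit with the largest fold change was GRIN2C, an NMDA subunit best known from the cerebellum, the thalamus and astrocytes. GRIN2C was 623, 666, 676, 609 and 802 scaled counts in the Veh animals SGM22, SGM23, SGM27, SGM28 and SGM29, and 713, 380, 288, 573 and 584 in the sGC animals SGM21, SGM24, SGM25, SGM26 and SGM30. All sGC animals but SGM21 lay below every Veh animal, SGM25 furthest. Its log2 fold change was -0.48 (SE 0.21, 95% interval -0.95 to -0.01), with an adjusted p of 0.382, and -0.29 without SGM25.

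GRIN3A was 2131, 2238, 2631, 2748 and 2471 in the F2 Veh animals and 3160, 2613, 2685, 2747 and 2431 in the sGC animals. SGM21 was the highest and the other 4 overlapped the Veh range (log2 fold change 0.16, SE 0.08, adjusted p = 0.476). GRIN2A was 274, 585, 460, 1042 and 588 in Veh and 486, 429, 705, 453 and 584 in sGC. The 10 F2 animals thus differed 3.8-fold in GRIN2A within a range set by 2 Veh animals, SGM22 and SGM28, and the SD within groups was 0.53 on the log2 scale against a median of 0.13 over all genes. Without SGM22 the log2 fold change of GRIN2A was -0.29, and without SGM28 it was 0.20, so its direction rested on single animals. GRIN2B was 681 in SGM22 and 1830 in SGM28, with the other 8 animals between 961 and 1235.

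The AMPA subunits and GRIN1 in F2 had log2 fold changes of 0.11 for GRIA1 (SE 0.12), 0.04 for GRIA2 (SE 0.10), -0.10 for GRIA3 (SE 0.07), 0.05 for GRIA4 (SE 0.07) and -0.09 for GRIN1 (SE 0.11). The interval for GRIA1, from -0.15 to 0.37, does not exclude a change of either sign. Leaving out single animals moved GRIA1 between 0.02 (without Veh SGM22) and 0.17, and GRIN1 between -0.17 (without Veh SGM22) and -0.01 (without Veh SGM28). GRIA2 and GRIA4 changed sign with unscaled values (-0.03 and -0.02). In 7 of 9 subunits the spread within groups exceeded the median over all genes. All 8 oligodendrocyte markers had a negative F2 fold change, their sum ranging from 133824 to 252288 scaled counts in Veh and from 79010 to 112111 in sGC, with 7 of 8 not overlapping and none past the threshold. All 6 PVN genes had a positive F2 fold change, none passed and 4 had an unadjusted p under 0.05, among them OXT (oxytocin, 0.72) and CRH (corticotropin-releasing hormone, 0.62). The summed PVN list ranged from 53465 to 102706 in Veh and from 75658 to 194539 in sGC. TCF7L2 ranged from 401 to 4703 over the Veh animals and from 613 to 3073 over the sGC animals. Whether these differences in content bear on the subunits was not tested.

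In F3, none of 9 subunits passed (0.0421% of all genes did). An unadjusted p under 0.05 was found for 2 of 9, beside 1562 of all 11865 genes. No subunit had groups without overlap (1.26% of all genes did). The fold changes ran from -0.29 to 0.04. GRIN2A had a lowest, median and highest value of 579, 788 and 804 scaled counts in the 6 Veh animals and of 496, 603 and 795 in the 6 sGC animals. The ranges overlapped, and the lowest were SGM21 (496) and SGM22 (518), the 2 sGC animals sequenced in a second batch that contributed no Veh animal to the table. The log2 fold change of GRIN2A was -0.29 (SE 0.11, 95% interval -0.52 to -0.05, adjusted p = 0.277). Within the first batch it was -0.17 (adjusted p = 0.649), and with the batch as a covariate -0.17 (adjusted p = 0.621). Within the second batch it could not be computed, since the Veh libraries sequenced there were repeats of first-batch animals and have no values in the table.

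GRIA2 in F3 ran from 4238 over a median of 4510 to 4811 in Veh and from 4085 over 4233 to 4499 in sGC. In F3, 3 sGC animals lay below every Veh animal: SGM10, and SGM21 and SGM22 of the second batch. The log2 fold change of GRIA2 was -0.08 (SE 0.04, adjusted p = 0.373). Over 10 alternatives, including the first batch alone and the batch as a covariate, it ran from -0.084 to -0.052 (adjusted p 0.357 to 0.713). GRIA1 ran from 3500 over 3571 to 3934 in Veh and from 3379 over 3682 to 3993 in sGC, with a log2 fold change of 0.02 and a 95% interval of -0.07 to 0.11. The remaining F3 fold changes were -0.01 for GRIA3, 0.00 for GRIA4, 0.02 for GRIN1, -0.04 for GRIN2B, -0.08 for GRIN2C and 0.04 for GRIN3A. Punch content was uneven in F3 too: the summed PVN list ranged from 13896 to 50042 scaled counts in Veh and from 19545 to 34163 in sGC. Of its 6 genes, 2 had a positive F3 fold change and 0 passed. Its bearing on the subunits was not tested.

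**Figure D3:**
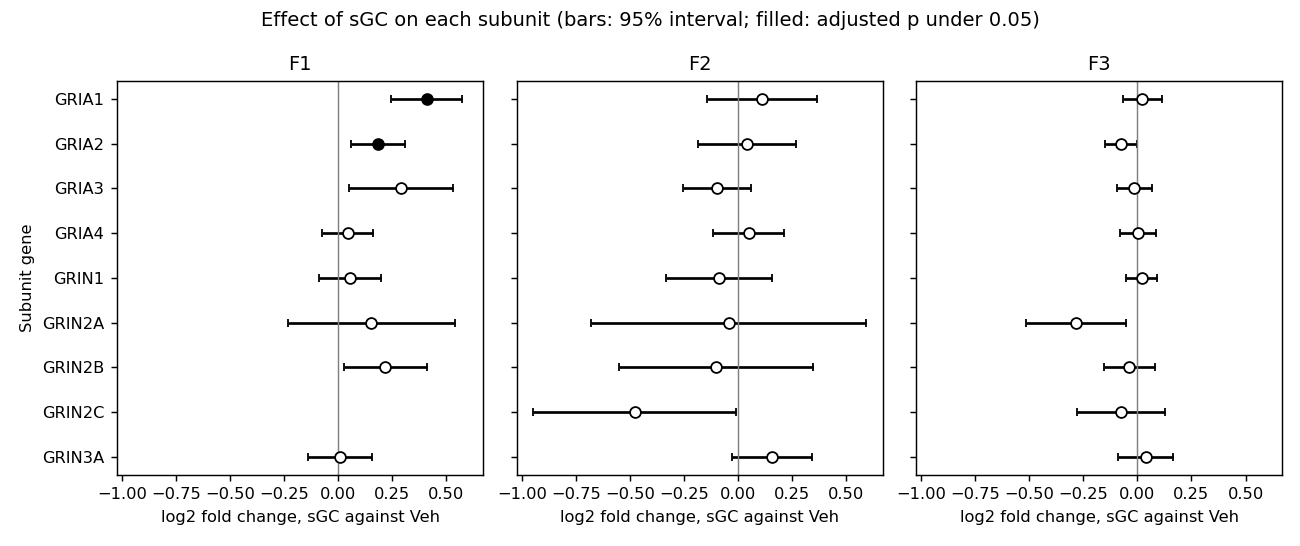
Log2 fold change of sGC against Veh (horizontal axes) for each subunit gene (vertical axis) in F1, F2 and F3, with bars for the 95% interval and filled points for an adjusted p under 0.05. Filled points are present in F1 only, for GRIA1 (0.41) and GRIA2 (0.18), and the intervals of GRIN2A and GRIN2C in F2 are the widest of those drawn.

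A call in F1 and none in F2 or F3 does not show that the generations differ. The difference of fold changes was therefore set against 100000 permutations of Veh and sGC labels inside each generation. Permuting removes the effect of sGC from both generations, so the test asks about no effect in either and not about equal effects. A real effect in 1 generation widens the permuted differences. Of 25 tests, 4 had an unadjusted p under 0.05 and 0 passed after adjustment, which does not show that the fold changes were equal. The F1 minus F3 difference was 0.26 for GRIA2 (permutation p = 0.00261, adjusted p = 0.0652) and 0.39 for GRIA1 (permutation p = 0.0107, adjusted p = 0.133). For GRIA3 the F1 minus F2 difference was 0.39 (permutation p = 0.0159, adjusted p = 0.133). The F1 minus F2 difference of GRIA1 was 0.30 (permutation p = 0.148, adjusted p = 0.528).

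Because a ratio of 2 genes within an animal does not depend on how samples are scaled, 4 subunit ratios were compared between the groups of each generation with exact two-sided permutation tests. They are ratios of counts that were not divided by transcript length, so they are compared between animals and do not give the proportion of subunits. Of 12 tests, 3 had an unadjusted p under 0.05 and none passed after adjustment. The log2 ratio of GRIA1 to GRIA2 in F1 ranged from -1.17 to -0.84 in Veh and from -0.81 to -0.56 in sGC. The groups did not overlap, with a difference of 0.22 (exact permutation p = 0.00794, the smallest that 5 against 5 animals can give; adjusted p = 0.0952). The same ratio was 0.07 higher in sGC in F2 (adjusted p = 0.327) and 0.10 higher in F3 (exact permutation p = 0.0173, adjusted p = 0.0952). In F3 it ranged from -0.37 to -0.28 in Veh and from -0.32 to -0.12 in sGC, overlapping between the groups, and within the first batch the difference was 0.08 (adjusted p = 0.21).

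The ratio of GRIN2A to GRIN2B, a ratio that rises as synapses mature, differed by -0.06 in F1, by 0.06 in F2 and by -0.25 in F3 (exact permutation p = 0.0736 in F3, adjusted p = 0.221). Within the first F3 batch the difference was -0.16 (adjusted p = 0.495), SGM21 and SGM22 of the second batch lying at -1.17 and -1.29. In F1 the sGC animals ranged from -1.85 to -0.86 and enclosed the Veh range of -1.46 to -1.07. The ratio of GRIN3A to GRIN1 was 0.24 higher in sGC in F2 (exact permutation p = 0.0238, adjusted p = 0.0952), with a range of -1.77 to -1.47 in Veh and -1.54 to -1.25 in sGC. It differed by -0.05 in F1 and by 0.02 in F3. The ratio of GRIA4 to GRIA2 differed by -0.14 in F1, 0.01 in F2 and 0.08 in F3, with adjusted p-values of 0.254, 0.921 and 0.254, and by 0.04 within the first F3 batch (adjusted p = 0.792).

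**Figure D4:**
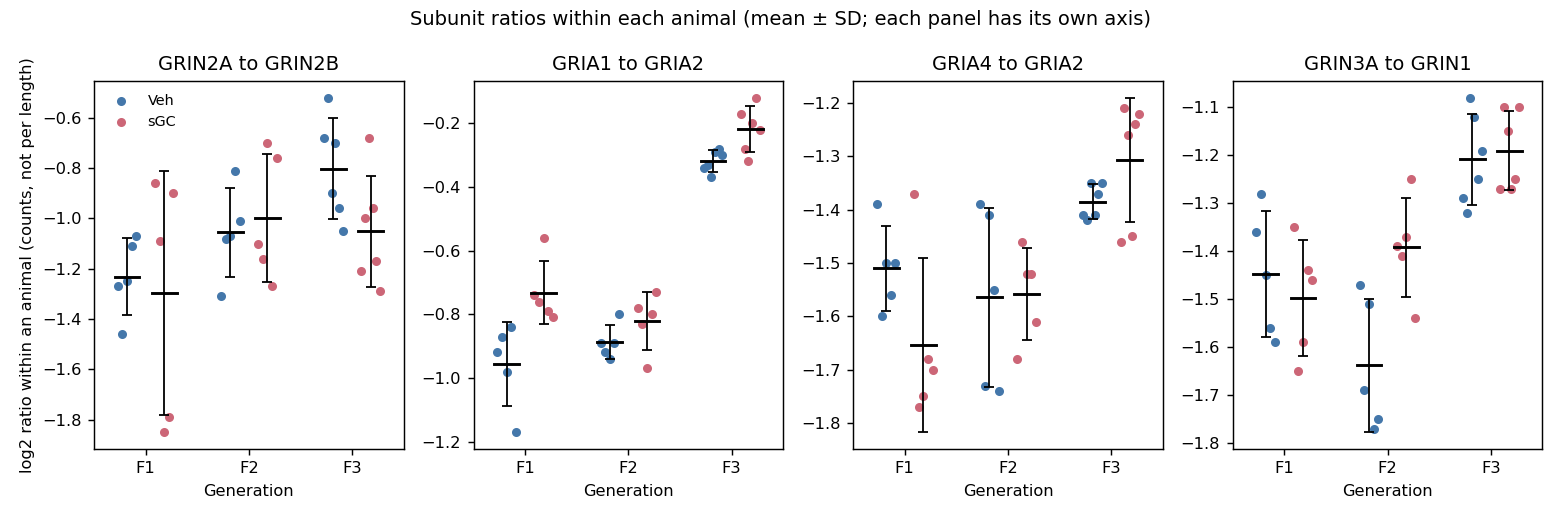
Log2 ratio of 2 subunit genes within each animal (vertical axes, each panel on its own range) by generation (horizontal axis), Veh in blue and sGC in red, with mean and SD. For GRIA1 to GRIA2 in F1 the sGC animals (-0.81 to -0.56) lie above all Veh animals (-1.17 to -0.84).

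How far the subunits varied together differed between the tables. After centring each group on its mean, the Pearson r over the 36 pairs of subunits in F2 (10 animals) had a median of 0.68, and 34 pairs were positive. GRIA1 with GRIA2 had an r of 0.94, GRIN2A with GRIN2B 0.94, and GRIA4 with GRIN3A 0.95. In F1 (28 pairs, 10 animals) the median was 0.20 and GRIN2A with GRIN2B had an r of -0.04. In F3 (36 pairs, 12 animals) the median was 0.05. These are descriptions: the animals of a table share its normalization, and punches differ in cell content.

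Over all 32 animals and 10539 genes, the genes whose centred log2 values were most like those of GRIN1 were ATP2B3, a plasma membrane calcium pump (r = 0.926), CLSTN3, a synaptic adhesion protein (r = 0.920), DLG4, the postsynaptic scaffold PSD-95 (r = 0.910), PDE4DIP (r = 0.906) and CAMK2B, a subunit of calcium/calmodulin-dependent kinase II (r = 0.905). For GRIA2 they were KIAA1841 (r = 0.925), TRPC7, a cation channel (r = 0.886), ADAM22, a receptor for LGI1 at the synapse (r = 0.885), ADGRB3, an adhesion receptor (r = 0.884), and CXXC4 (r = 0.875). GRIA1 came at rank 30 for GRIA2 (r = 0.817), the nearest of the family. The nearest subunit to GRIN1 was GRIN2B, at rank 205 (r = 0.765). F2 animals weigh most in these r values. The log2 SD within groups was 0.20 in F2, 0.11 in F1 and 0.06 in F3 for GRIN1. For GRIA2 it was 0.19, 0.09 and 0.06 in the same order. GRIN1 with GRIA1 had an r of 0.661 over all animals, but 0.50 in F1, 0.87 in F2 and -0.36 in F3. GRIN1 with GRIN2B had 0.77, 0.79 and 0.57.

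The genes that surround these receptors were counted in 7 lists of 73 genes, of which 64 were tested in F1, 63 in F2 and 65 in F3. In F1, 12 of 64 (18.8%) passed, 10 higher and 2 lower, beside 17.3% of all genes. Without the 3 low-AVP animals 6 of those 12 passed, and all 12 kept their sign. With unscaled values 2 passed, GRIK3 and SHANK1. Leaving out single animals left 5 to 10 pathway genes past the threshold, the fewest without Veh SGM11, and between 6 and 7 without Veh SGM3, SGM7 or SGM15 or sGC SGM8 or SGM12. The calls of GRID1, GSG1L, PICK1 and CAMK2G described next were each lost in 9 of 10 such omissions, those of DLG1 and PRKCA in 8, and that of CNIH2 in 1.

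Of the kainate and delta subunits with GRIN3B, the nearest relatives of the AMPA and NMDA subunits, 2 of 8 rose. GRIK3, a kainate receptor subunit, was 1834 ± 275 scaled counts in Veh and 2714 ± 277 in sGC (SD, n = 5 each), without overlap (log2 fold change 0.57, adjusted p = 0.00512). Without the low-AVP animals GRIK3 was at 0.53 (adjusted p = 0.0481). GRID1, a delta subunit that takes part in synapse organisation, rose by 0.18 (adjusted p = 0.0461), and by 0.25 without those animals (adjusted p = 0.0414). Of the metabotropic receptors, 1 of 5 passed: GRM5, which couples to intracellular calcium release and to NMDA receptors, went from 755 ± 67.4 to 1059 ± 162 (SD, n = 5 each; log2 fold change 0.48, adjusted p = 0.0105). It was 0.38 without the low-AVP animals (adjusted p = 0.033).

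Of the auxiliary subunits, which travel with AMPA and kainate receptors and set their gating and surface number, 3 of 15 passed. CACNG8, a transmembrane AMPA receptor regulatory protein known to bind GRIA1-containing receptors, was 139 ± 5.85 scaled counts in Veh and 208 ± 22.4 in sGC (SD, n = 5 each), without overlap. Its log2 fold change was 0.57 (adjusted p = 0.0026), and 0.46 without the low-AVP animals (adjusted p = 0.0197). GSG1L, an auxiliary subunit that suppresses AMPA currents, rose by 0.56 (adjusted p = 0.0459), and CNIH2, an AMPA receptor export and gating protein, fell by 0.26 (adjusted p = 0.0191). Without the low-AVP animals GSG1L was at 0.47 (adjusted p = 0.213) and CNIH2 at -0.12 (adjusted p = 0.19).

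Of the scaffold and anchoring proteins, 4 of 18 passed. SHANK1, a scaffold deep in the postsynaptic density, went from 3469 ± 473 to 5416 ± 715 scaled counts (SD, n = 5 each; log2 fold change 0.64, adjusted p = 0.00336). It passed without the low-AVP animals as well (adjusted p = 0.0294). DLG1, a scaffold that binds GRIA1, rose by 0.16 (adjusted p = 0.039), and PICK1, which takes part in internalising GRIA2, fell by 0.19 (adjusted p = 0.0461). Without those animals DLG1 was at 0.12 (adjusted p = 0.239) and PICK1 at -0.16 (adjusted p = 0.201).

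Of the receptor kinases, 2 of 9 passed, PRKCA (0.17, adjusted p = 0.0422) and CAMK2G (0.14, adjusted p = 0.0498), which without the low-AVP animals were at 0.18 (adjusted p = 0.127) and 0.07 (adjusted p = 0.353). None of 6 genes for the NMDA co-agonists glycine and D-serine passed, the largest fold change being that of the glycine transporter SLC6A9 (0.19, adjusted p = 0.119). None of 3 RNA editing enzymes passed, including ADARB1, which edits the GRIA2 pore site (0.28, adjusted p = 0.228).

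In F2, 0 of 63 pathway genes passed with limma, and 4 had an unadjusted p under 0.05, beside 1534 of all 11959 genes. The 4 were the kainate subunit GRIK1 (-0.44), the metabotropic receptor GRM3 (-0.24), the D-serine transporter SLC7A10 (-0.11) and the auxiliary subunit SHISA7 (0.20). In F3, 0 of 65 passed and 11 had an unadjusted p under 0.05, beside 1562 of all 11865 genes. The smallest adjusted p-values in F3 were those of DLGAP1, a PSD-95 binding scaffold (-0.20, adjusted p = 0.0665), and ADARB1 (-0.11, adjusted p = 0.106), both without overlap between the groups. The largest F3 fold change was that of the auxiliary subunit CNIH3 (-0.86, adjusted p = 0.249), at 77.8 ± 35.7 scaled counts in Veh and 42.8 ± 18.2 in sGC (SD). SLC7A10 and SHISA7 were named after their values were seen.

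**Figure D5:**
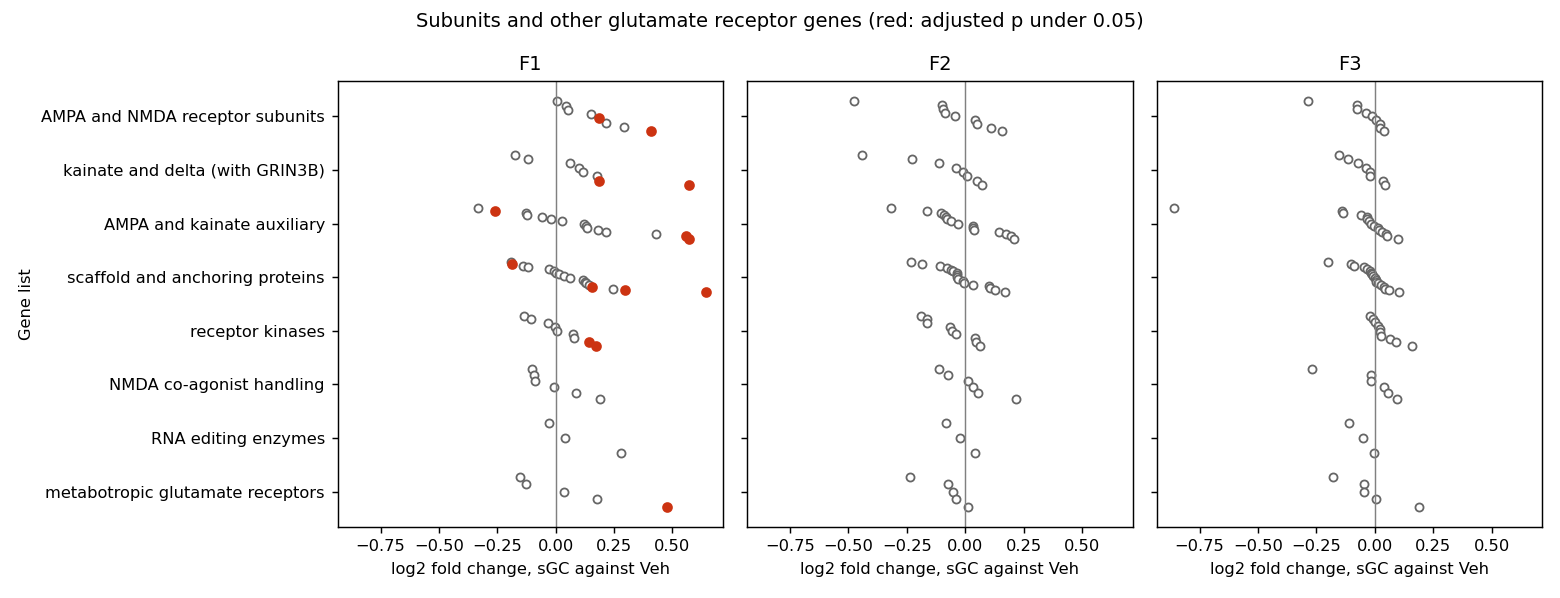
Log2 fold change of sGC against Veh (horizontal axes) for each gene of the subunit family and of 7 lists of related genes (vertical axis), in F1, F2 and F3, with red points for an adjusted p under 0.05. Red points occur in F1, 2 for the subunits and 12 for the related genes (10 to the right of 0 and 2 to the left), and none in F2 or F3.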

How the data were processed

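PVN micropunches of 32 animals were measured by single-end sequencing of TruSeq mRNA libraries, and 2 technical repeat libraries of F3 Veh animals were not used here. The authors aligned reads to cavPor3 (the submitters' processing notes name TopHat2 and edgeR), took gene counts with GenomicAlignments, dropped outliers by Cook's distance, applied ComBat to the 2 sequencing batches of F3, and then used the residual method of RUVSeq. What the authors deposited is 1 table per generation of normalized counts on no fixed range, rounded to whole numbers, handled here as a score: no count test was used, and levels were not compared across tables. The study's methods give a typical read depth, but the tables hold normalized values and not the reads behind each one, so no counting interval was computed. Columns of the authors' own comparison (fold change, test score, dispersion, p-value, false discovery rate) were not used.

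Values were divided by median-of-ratios size factors, rows averaging under 10 were dropped (every subunit with a row passed), and log2(value + 1) was fitted per generation in R 4.3.3 with limma 3.58.1 (linear model, moderated with a mean trend, two-sided, Benjamini-Hochberg, threshold 0.05). Fold changes on that scale understate changes of low genes. Ratios and permutation tests were also computed in R, and plots used Python 3.11.15 and matplotlib 3.10.9. The fits were tested on simulated counts that did not model the authors' residual normalization, so that test cannot show its bearing on the p-values. By the values, residual normalization removed 1 direction in F1, 1 in F2 and 2 in F3, which lowers the spread within groups. Alternatives covered scaling, pseudocount, filter, the removed directions as covariates, single animals left out and the F3 batch. Leaving out the animals of low AVP (under 0.5 of the lowest Veh animal), and SGM15 with them, was added after seeing the data. The subunits and gene lists were chosen with earlier results of these data known. Named genes were all 10 subunits, list genes past the threshold (1 of the scaffold list is not reported here), for lists without any the largest fold change, and the 5 genes most like GRIN1 and GRIA2 in r, among those averaging 50 or more in each table. All 10 subunits had a protein-coding RefSeq entry in mCavPor4.1, whose coordinates were not used because the builds differ. P-values measure the spread between animals of separate litters that was left after the authors' normalization, not the full spread between litters. The main fit did not include the removed directions, and with them as covariates 1345 F1 genes passed instead of 2058.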

Additional observations from a re-analysis of the deposited data

Results flagged for a closer look

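Of 82 groups of subunit values, ratios and sample totals examined, 5 held 1 animal apart from the rest by Dixon's criterion, when chance gives about 4.1 (1 in 20). In the F1 sGC group, SGM4 had a GRIA4 value of 10.91 on the log2 scale with the others between 10.73 and 10.79, and a log2 ratio of GRIA4 to GRIA2 of -1.37 with the others between -1.77 and -1.68. SGM4 was also the animal of lowest AVP. In the same group SGM12 had a log2 ratio of GRIA1 to GRIA2 of -0.56 with the others between -0.81 and -0.74, and SGM20 had a sample total of 16.23 M normalized counts with the others between 19.09 and 20 M. In the F3 sGC group SGM22, an animal of the second batch, had a GRIN2C value of 8.72 with the others between 9.02 and 9.14.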

How the results depend on the processing

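The F1 call of GRIA1 held under 9 of 10 alternatives (log2 fold change 0.40 to 0.52, adjusted p 0.00439 to 0.11) and failed with unscaled values. The 9 include the changes of pseudocount and filter, which could hardly move a gene of this level and so test the call little. Unscaled, the F1 counts past the threshold were 0 subunits, 2 pathway genes and 78 genes; with the removed directions as covariates 1, 6 and 1345; without the low-AVP animals 1032 genes. F2 had 42 genes with quantile normalization. F3 had 1 gene with the removed directions as covariates, 0 in the first batch alone and 3 with batch as a covariate. Directions turned for F1 GRIN2A (-0.27 without the low-AVP animals, -0.22 without SGM15 as well), GRIN3A (-0.0023 and -0.037) and GRIA4 (-0.0054 without all 4); for F2 GRIA2 (-0.032) and GRIA4 (-0.025) unscaled; and for F3 GRIA4 (-0.011 in the first batch, -0.010 with batch as a covariate). Unscaled, the differences between generations turned for GRIA4 F1 minus F2 (0.13), GRIN3A F1 minus F3 (0.034) and GRIA4 F2 minus F3 (-0.028). The cause was not tested.

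Leaving out single animals gave 904 (without Veh SGM11) to 2021 genes, 1 to 3 subunits and 5 to 10 pathway genes in F1; 0 to 2 genes in F2; and 1 to 17 genes and 0 to 1 pathway genes in F3, with 17 genes without sGC SGM18 and 16 without Veh SGM14. Over those omissions, log2 fold changes ranged from -0.032 to 0.044 for F1 GRIN3A, from -0.046 to 0.090 for F2 GRIA2, from -0.29 to 0.20 for F2 GRIN2A, from -0.28 to 0.077 for F2 GRIN2B, from -0.00012 to 0.049 for F3 GRIA1, from -0.032 to 0.010 for F3 GRIA3, from -0.013 to 0.025 for F3 GRIA4 and from -0.065 to 0.0055 for F3 GRIN2B. Ratio differences ranged from -0.17 to 0.073 for F1 GRIN2A to GRIN2B, from -0.016 to 0.13 for F2 GRIN2A to GRIN2B, from -0.037 to 0.051 for F2 GRIA4 to GRIA2, from -0.0051 to 0.043 for F3 GRIN3A to GRIN1 and from 0.080 to 0.12 for F3 GRIA1 to GRIA2, which passed without sGC SGM10 (adjusted p = 0.0476). No paired analysis was possible because the numbers in the labels name animals and are not shared between the groups compared.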
